A study of Homo sapiens with 6 samples.

Results

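NQO1 and 8 other genes known as targets of the transcription factor NRF2, or grouped with its detoxification targets, were followed in DLD-1 cells, a human epithelial colorectal cancer line. The 9 genes are NQO1, FTL, FTH1, ALDH3A1, UGT1A1, EPHX1, HMOX1, TXNRD1 and OSGIN1, out of 27264 gene rows in the count table. They were chosen by name, with earlier results of these libraries known, and the comparison used for that choice was the one between cells with and without DOX within each clone. Their values in that comparison are therefore given as a description, and where a fit over all genes called some of them, the count is printed without being read as evidence. All 9 have a row, and 8 passed the filter on low counts, which left out FTH1.

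The groups are DLD-1 cells labelled ZEB2 WT with DOX (pDOX, called mesenchymal in the labels) and DLD-1 cells labelled ZEB2 WT without DOX (mDOX, called epithelial). The sample descriptions of all 6 libraries also carry TR21 after the name of the line, without saying there what it stands for. DOX is the usual short form of doxycycline, and neither its dose nor its duration is stated in the sources at hand. Each group has 3 libraries, 1 from each of the clones WT2, WT5 and WT37, which the series design gives as its biological replicates. The study's title concerns epithelial-to-mesenchymal transition driven by ZEB2, a zinc finger repressor of epithelial genes, and no labelled library is of DOX-treated cells that lack a ZEB2 construct, so the effect of ZEB2 and that of DOX itself cannot be told apart.

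The libraries held 5440093 to 7164426 reads assigned to genes. ZEB2 had 20, 9 and 22 reads with DOX in WT2, WT5 and WT37, against 9, 5 and 3 reads without DOX. The difference did not pass in edgeR over all genes (adjusted p = 0.781 without the clone as a block and 0.225 with it). A ZEB2 construct that lacks the natural transcript end would not be counted by a kit that reads transcript ends. Whether the construct used here lacks it was not tested. All 8 listed markers of colon epithelium (EPCAM, CDH1, KRT8, KRT18, KRT20, VIL1, CDX2 and LGALS4) were detected, with summed levels of 3416 to 4852 CPM, which are read counts brought to a common library size and scaled by TMM, with DOX and 5662 to 7410 CPM without DOX. The 4 fibroblast genes with a row, of 5 listed, summed to at most 1.44 CPM with DOX and 1.78 CPM without DOX, and the 2 endothelial genes with a row, of 4 listed, to at most 0.164 CPM with DOX and 0.499 CPM without DOX. COL1A2, LYZ and PECAM1 were at 0 in all 6 libraries. The 4 leukocyte genes with a row, of 5 listed, summed to 4.77 to 10.6 CPM with DOX and 4.44 to 8.90 CPM without DOX. The epithelial marker sum was lower with DOX, in the comparison where most of the 9 genes were higher, and its part in their values was not tested. In such bulk libraries, fewer cells of a kind and less RNA per cell cannot be told apart.

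NRF2, encoded by NFE2L2, is a transcription factor that KEAP1 marks for degradation. When oxidants or electrophiles modify KEAP1, NRF2 accumulates and, with a small MAF protein, binds antioxidant response elements (AREs) in genes for quinone reduction, glutathione supply, thioredoxin reduction, heme breakdown and iron storage. Several of these genes, NQO1, ALDH3A1 and UGT1A1 among them, are also induced through the aryl hydrocarbon receptor (AHR), and ferritin is controlled in addition at translation through an iron-responsive element in the 5′ UTR of its mRNA. In the gut, these enzymes are known for handling dietary and bacterial quinones, aldehydes and bilirubin.

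The promoters of 3 of the genes are shown because they hold, within the 250 bases before an annotated start, letters of motifs known from this regulation. The letters searched on both strands were the core TGACNNNGC of the ARE, the core GCGTG bound by AHR and the motif TGANTCA bound by AP-1 factors, which resembles part of an ARE. Sequences are those of RefSeq on GRCh38.p14, written 5′ to 3′ on the strand of the gene, with capitals for motif letters on either strand.
TXNRD1 first promoter, chr12:104215529-104215778, plus strand: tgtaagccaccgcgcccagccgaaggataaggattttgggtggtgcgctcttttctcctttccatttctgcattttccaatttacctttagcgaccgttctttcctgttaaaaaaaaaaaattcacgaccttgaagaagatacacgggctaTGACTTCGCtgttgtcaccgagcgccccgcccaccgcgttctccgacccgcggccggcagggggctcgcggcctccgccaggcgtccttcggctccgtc
EPHX1 inner promoter, chr1:225825104-225825353, plus strand: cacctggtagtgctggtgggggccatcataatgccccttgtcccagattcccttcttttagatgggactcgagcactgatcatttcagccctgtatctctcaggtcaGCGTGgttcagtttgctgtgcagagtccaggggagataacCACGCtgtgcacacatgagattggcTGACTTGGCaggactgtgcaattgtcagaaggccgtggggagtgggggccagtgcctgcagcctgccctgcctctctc
OSGIN1 promoter, chr16:83952990-83953239, plus strand: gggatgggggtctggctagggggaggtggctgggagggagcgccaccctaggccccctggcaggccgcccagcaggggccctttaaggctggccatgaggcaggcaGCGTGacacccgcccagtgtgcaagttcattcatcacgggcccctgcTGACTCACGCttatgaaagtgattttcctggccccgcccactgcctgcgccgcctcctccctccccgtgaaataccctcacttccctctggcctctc
FTL iron-responsive element, chr19:48965331-48965358, plus strand: ctgtctcttgcttcaaCAGTGTttggac
In the TXNRD1 window the ARE core lies 99 to 91 bases before the start. In the EPHX1 window, which lies within EPHX1 and overlaps none of its exons in GENCODE 29, the ARE core lies 78 to 70 bases before the start, and AHR cores lie 143 to 139 and 103 to 99 bases before it. The OSGIN1 window also lies within its gene as annotated in GENCODE 29, not before the start of that gene. In the OSGIN1 window the AP-1 motif lies 97 to 91 bases before the RefSeq start and overlaps an AHR core at 92 to 88 bases. Another AHR core lies at 144 to 140 bases. Of the windows not printed, a second one of TXNRD1 also held an ARE core and an AHR core, and that of FTL held AHR cores only. The other 2 EPHX1 windows, 1 of them at the start of the gene, and the NQO1 and UGT1A1 windows held none of the 3 motifs. Of all 35116 promoters of the table, 10.9% held the ARE core, 32.2% the AHR core and 6.6% the AP-1 motif in the same window. A match is a run of letters, not a shown binding site, and a window without one says nothing about sites elsewhere. In the FTL element, the capitals mark the loop letters by which iron regulatory proteins recognise it. The printed stretch of 28 bases stops shortly after the loop, where the sequence at hand ends, so it holds only part of the element. FTH1, ALDH3A1 and HMOX1 were not examined for promoter motifs.

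Among the rows of the 9 genes, the level of NQO1 was the highest and that of FTH1 the lowest. The kit reads 1 fragment per transcript end, so levels are compared between genes as CPM without a length correction. NQO1 averaged 805 CPM over the 6 libraries and FTL 492 CPM, with ranges that overlapped. TXNRD1 averaged 203 CPM, below both and without overlap. HMOX1 averaged 67.1 CPM and ALDH3A1 56.1 CPM, and these ranges overlapped each other. OSGIN1 (7.69 CPM), UGT1A1 (6.57 CPM) and EPHX1 (5.01 CPM) also overlapped, so their order is not set by these libraries. FTH1 averaged 0.552 CPM, and its highest library (1.33 CPM) lay above the lowest of UGT1A1 (1.16 CPM). The FTH1 row held 8 reads or fewer per library and may miss reads of the gene, which was not tested, so its place is that of the row. Against all 11732 tested genes, NQO1 stood at percentile 98.6 of the mean level and FTL at 97.4.

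**Figure D1:**
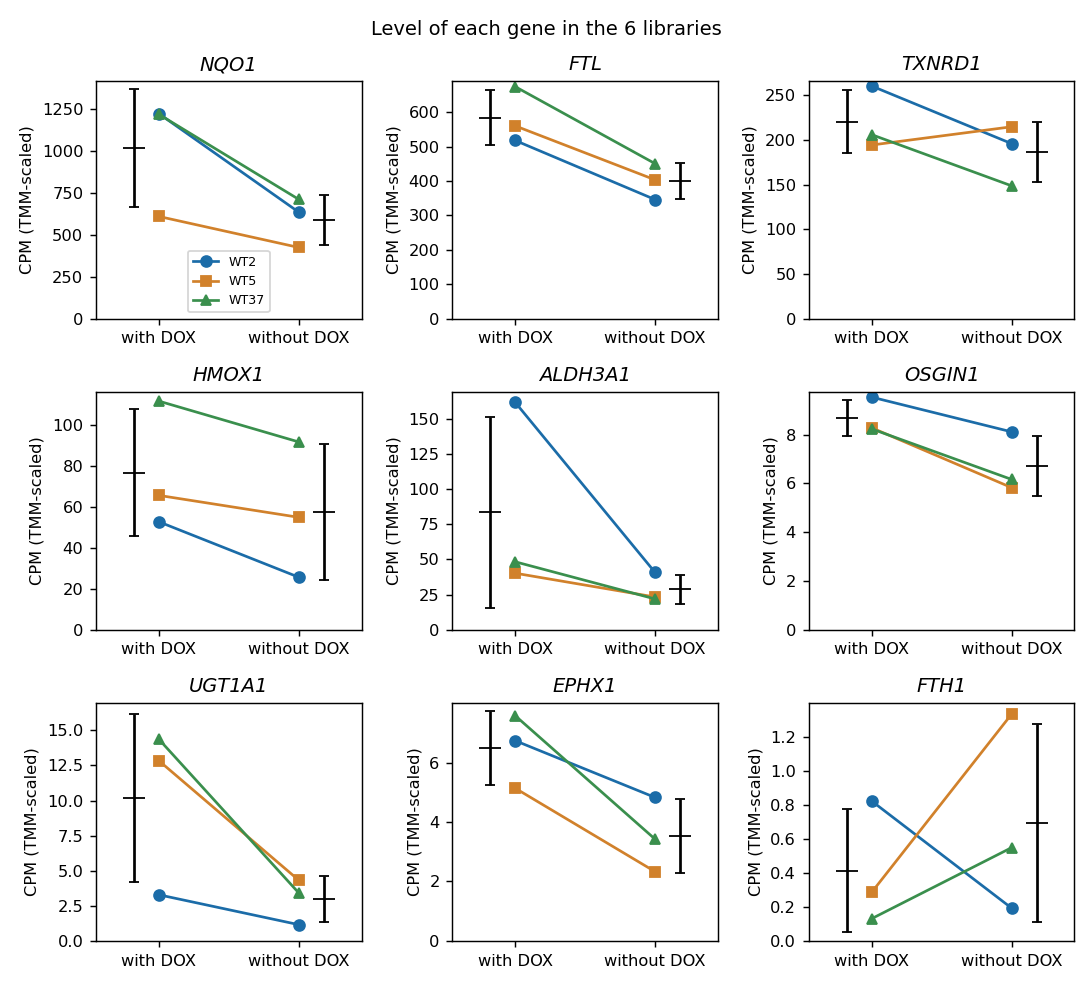
Level of each of the 9 genes (y axis, CPM scaled by TMM) with DOX and without DOX (x axis); each line joins the 2 libraries of 1 clone, and black bars give the mean and SD of 3 clones. NQO1 reached 1225 CPM with DOX in WT2, the lines of TXNRD1 cross because WT5 was lower with DOX, and the FTH1 panel rests on 8 reads or fewer in each library.

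Of the 9 genes, 7 were higher with DOX in all 3 clones, where 17.8% of all tested genes were; the count describes the choice of genes and nothing is read from it. The median within-clone difference over the 9 genes, on the log2(CPM + 1) scale, was 0.61 in WT2 and 0.58 in WT37, and 0.47 in WT5. Over all tested genes the median was 0.0014 in WT2, -0.0005 in WT37 and 0.0021 in WT5. The groups did not overlap, with DOX higher, for FTL, EPHX1 and OSGIN1 (3 genes, where 5.32% of all tested genes did so). For 0 of the 9 did they separate with DOX lower, where 6.08% of all tested genes did so. For the other 6 genes, at least 1 library with DOX lay below 1 without DOX.

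In edgeR's quasi-likelihood test over all genes with Benjamini-Hochberg adjustment, none of the 9 passed an adjusted p of 0.05 without a clone term, where 0% of all 11732 tested genes passed and 709 had an unadjusted p under 0.05. None passed in DESeq2 either, where 0.486% of all genes passed. With the clone as a block, NQO1, FTL, ALDH3A1 and UGT1A1 passed as higher (4 genes, where 0.656% of all tested genes passed in that direction and 1.3% in either).

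NQO1 encodes a quinone reductase of the cytosol that uses NADPH or NADH and is the usual marker gene of NRF2 activity (ENSG00000181019, chromosome 16, 69706996 to 69726951, minus strand, GENCODE 29). It had 1225, 611 and 1221 CPM with DOX in WT2, WT5 and WT37, against 637, 425 and 713 CPM without DOX. All 3 clones were higher with DOX, but WT5 was the lowest clone in both groups, and its library with DOX lay below WT2 and WT37 without DOX, so the groups overlapped. The mean was 1019 ± 353 CPM with DOX and 592 ± 149 CPM without DOX (SD, n = 3 each), and the mean within-clone log2 difference was 0.75 ± 0.21 (SD, n = 3). The fold was 1.92 in WT2, with an exact 95% counting interval of 1.85 to 2.01, 1.71 in WT37 (1.65 to 1.77) and 1.44 in WT5 (1.37 to 1.51). These intervals do not overlap, but they cover counting error only, and with 1 library per clone and condition the difference between clones was not tested. An antisense gene, AC092115.2, overlaps 710 bases of NQO1, and the strand setting of the counting is unknown here.

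ALDH3A1 encodes an aldehyde dehydrogenase that oxidises lipid-derived and aromatic aldehydes and is inducible through AHR (ENSG00000108602, chromosome 17, 19737984 to 19748943, minus strand). It had 162, 40.2 and 48.4 CPM with DOX in WT2, WT5 and WT37, against 40.8, 23.3 and 21.9 CPM without DOX. The WT2 library with DOX stood far above the other 5, and WT5 with DOX lay just under WT2 without DOX. The mean was 83.5 ± 67.9 CPM with DOX and 28.7 ± 10.5 CPM without DOX (SD, n = 3 each), so the SD with DOX was carried by WT2. The fold was 3.97 in WT2 (counting interval 3.42 to 4.63), 1.73 in WT5 (1.41 to 2.13) and 2.21 in WT37 (1.83 to 2.67). The mean within-clone log2 difference was 1.28 ± 0.62 (SD, n = 3), and 0.93 without WT2. An antisense gene, AC005722.3, lies opposite 559 bases of it.

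EPHX1 encodes the microsomal epoxide hydrolase, which opens reactive epoxides made by cytochrome P450 enzymes (ENSG00000143819, chromosome 1, 225810092 to 225845563, plus strand). It had 6.74, 5.14 and 7.58 CPM with DOX in WT2, WT5 and WT37, against 4.83, 2.33 and 3.42 CPM without DOX. Every library with DOX was above every library without DOX, by a narrow margin between WT5 with DOX and WT2 without DOX. These levels rest on 36 to 58 reads with DOX and 14 to 25 reads without DOX. The mean was 6.49 ± 1.24 CPM with DOX and 3.53 ± 1.25 CPM without DOX (SD, n = 3 each), and the mean within-clone log2 difference 0.75 ± 0.30 (SD, n = 3). The fold was 1.40 in WT2, with a counting interval of 0.829 to 2.40 that includes 1, against 2.20 in WT5 and 2.21 in WT37. The antisense gene AL591895.1, with 89 reads over the 6 libraries, overlaps 4681 bases of EPHX1.

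UGT1A1 encodes the enzyme that joins bilirubin to glucuronic acid for excretion (ENSG00000241635, chromosome 2, 233760248 to 233773299, plus strand). It had 3.29, 12.8 and 14.4 CPM with DOX in WT2, WT5 and WT37, against 1.16, 4.33 and 3.42 CPM without DOX. WT2 was the lowest clone in both groups, so that WT2 with DOX lay under WT5 and WT37 without DOX. The fold was 4.2 in WT37 (counting interval 2.70 to 6.77), 2.97 in WT5 (1.90 to 4.79) and 2.84 in WT2, where 20 reads with DOX against 6 without DOX left an interval of 1.1 to 8.63. The mean within-clone log2 difference of 1.39 ± 0.40 (SD, n = 3) was the largest of the 9 genes with a pseudocount of 1 CPM, and was 0.86 with a pseudocount of 5 CPM. All 50-base windows in the last 300 bases of the UGT1A1 transcript are shared with 8 other UGT1A genes, which use the same last exons. The 6 other UGT1A rows held 3, 4 and 3 reads with DOX in WT2, WT5 and WT37, against 1, 0 and 2 reads without DOX, most of them in UGT1A6. How the counting treated these shared ends is not known here, and ambiguous reads, 6.86% to 7.40% of a library, were given to no gene. Whether the row counts UGT1A1 alone or transcript ends of the UGT1A family thus cannot be told apart.

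HMOX1 encodes heme oxygenase, which breaks heme down to biliverdin, carbon monoxide and iron (ENSG00000100292, chromosome 22, 35380361 to 35394214, plus strand). It had 52.8, 65.7 and 111.7 CPM with DOX in WT2, WT5 and WT37, against 25.7, 54.9 and 91.8 CPM without DOX. The order of the clones was the same in both groups, and the groups overlapped widely. The fold was 2.05 in WT2 (counting interval 1.67 to 2.53), 1.20 in WT5 (1.04 to 1.38) and 1.22 in WT37 (1.1 to 1.35). The mean within-clone log2 difference was 0.51 ± 0.43 (SD, n = 3), and 0.27 without WT2, so that WT2 decided its size.

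FTL encodes the light chain of ferritin, the shell in which cells store iron (ENSG00000087086, chromosome 19, 48965301 to 48966878, plus strand). It had 518, 560 and 674 CPM with DOX in WT2, WT5 and WT37, against 346, 404 and 451 CPM without DOX. The groups did not overlap, and WT37 was the highest clone in both. The fold was 1.5 in WT2 and WT37 and 1.39 in WT5, with counting intervals between 1.32 and 1.59 in all. The mean within-clone log2 difference was 0.54 ± 0.06 (SD, n = 3), the smallest SD among the 9 genes. These are mRNA levels, and the iron-responsive element, printed above in part, acts on translation, which was not measured here.

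FTH1 encodes the heavy chain of ferritin, which oxidises iron for storage (ENSG00000167996, chromosome 11, 61959718 to 61967660, minus strand). It had 5, 2 and 1 reads with DOX in WT2, WT5 and WT37, against 1, 8 and 4 reads without DOX, and was not tested. No direction can be read from these counts: the counting interval of its fold included 1 in all 3 clones. Of the 50-base windows at its annotated transcript ends, 24.1% are shared with 5 FTH1 copies, against 0.8% for FTL. The 14 rows of FTH1 copies held 93, 94 and 89 reads with DOX in WT2, WT5 and WT37, against 64, 96 and 93 reads without DOX, with most reads in FTH1P8. Reads that mapped to several places made up 11.8% to 15.96% of a library and were not given to a gene, and how many came from FTH1 was not tested. BEST1, a gene with 15 reads over the 6 libraries, lies opposite 5798 bases of FTH1. The strand setting is unknown, and whether reads of FTH1 were lost through this overlap was not tested. Any statement on ferritin here is thus one on FTL. The 6 rows of FTL copies were led by FTLP3, with 16, 17 and 36 reads with DOX against 11, 12 and 11 reads without DOX, few beside the 1792 reads or more of FTL in each library.

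TXNRD1 encodes the cytosolic thioredoxin reductase, a selenoprotein that passes electrons from NADPH to thioredoxin (ENSG00000198431, chromosome 12, 104215779 to 104350305, plus strand). It had 260, 194 and 206 CPM with DOX in WT2, WT5 and WT37, against 196, 215 and 149 CPM without DOX. WT2 and WT37 were higher with DOX and WT5 was lower, and the groups overlapped. The fold was 1.33 in WT2 (counting interval 1.23 to 1.44), 0.905 in WT5 (0.838 to 0.978) and 1.38 in WT37 (1.28 to 1.5). The mean within-clone log2 difference was 0.24 ± 0.34 (SD, n = 3), 0.44 without WT5, 0.13 without WT37 and 0.16 without WT2. The processed copy RPL18AP3, with 454 reads, lies within TXNRD1 on its strand, and the antisense gene AC089983.1 lies opposite 18409 bases of it.

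OSGIN1 encodes a growth inhibitor known to be induced by oxidative stress (ENSG00000140961, chromosome 16, 83948282 to 83966332, plus strand). It had 9.53, 8.28 and 8.23 CPM with DOX in WT2, WT5 and WT37, against 8.11, 5.83 and 6.16 CPM without DOX. The groups did not overlap, but WT37 with DOX exceeded WT2 without DOX by little. The mean was 8.68 ± 0.74 CPM with DOX and 6.70 ± 1.23 CPM without DOX (SD, n = 3 each). In each clone the counting interval of the fold included 1, so a difference in a single clone was not detectable at this depth.

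**Figure D2:**
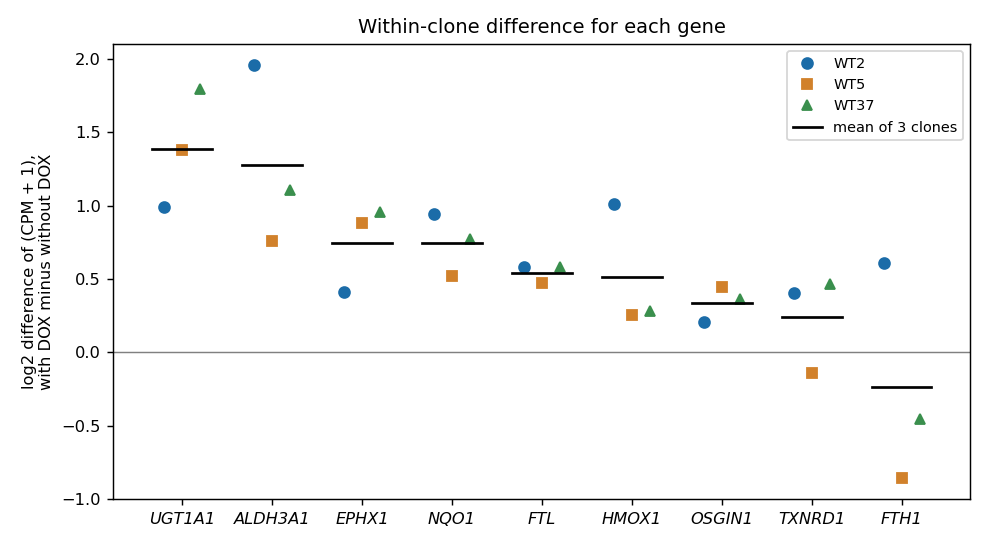
Within-clone difference of each gene (x axis) as log2(CPM + 1) with DOX minus log2(CPM + 1) without DOX (y axis); symbols are the 3 clones and bars their mean. UGT1A1 and ALDH3A1 had the largest means, 1.39 and 1.28, the 3 clones of FTL lie nearly on 1 point, and only TXNRD1 in WT5 and FTH1 in WT5 and WT37 lie below 0.

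The clones placed their largest differences in different genes. In WT2, the largest of the 9 differences was that of ALDH3A1 (1.96) and the smallest that of OSGIN1 (0.21). In WT5, UGT1A1 had the largest (1.38), and of the 8 tested genes TXNRD1 had the smallest (-0.14). In WT37, UGT1A1 had the largest (1.8), and of the 8 tested genes HMOX1 had the smallest (0.28). WT2 thus held the largest difference for NQO1, ALDH3A1 and HMOX1 and the smallest for UGT1A1, EPHX1 and OSGIN1, while WT5 held the smallest for NQO1, ALDH3A1, FTL, HMOX1 and TXNRD1. None of these differences between clones has a replicate, and none was tested.

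Levels also differed between clones apart from DOX. This contrast was not itself used to choose the genes. Its p-values, however, are set against the spread of the within-clone differences, and the genes were chosen on those differences. The count of calls below is therefore not independent of the choice, and it is printed without being read as evidence. In edgeR's test of the clone term with DOX as a covariate, 4 of the 8 tested genes passed, where 6.84% of all tested genes did. The test assumes that DOX acts alike in all clones, and each clone has 2 libraries.

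NQO1 was lower in WT5, with a mean of 518 CPM, than in WT2 (931 CPM) and WT37 (967 CPM). Its log2 fold change was -0.79 for WT5 over WT2 and 0.08 for WT37 over WT2 (edgeR, adjusted p of the clone term 0.002). HMOX1 had 39.2 CPM in WT2, 60.3 CPM in WT5 and 101.7 CPM in WT37, with a log2 fold change of 1.41 for WT37 over WT2 (adjusted p = 0.00273). UGT1A1 was lower in WT2 (2.22 CPM) than in WT5 (8.59 CPM) and WT37 (8.90 CPM), with log2 fold changes of 1.96 for WT5 over WT2 and 1.95 for WT37 over WT2 (adjusted p = 0.00791). ALDH3A1 went the other way, with 101.2 CPM in WT2, 31.8 CPM in WT5 and 35.1 CPM in WT37, and log2 fold changes of -1.49 for WT5 over WT2 and -1.39 for WT37 over WT2 (adjusted p = 0.0198). WT2 was thus the lowest clone for HMOX1 and UGT1A1 and the highest for ALDH3A1, and WT5 the lowest for NQO1.

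FTL did not pass (adjusted p = 0.0874), nor did TXNRD1 (0.251), EPHX1 (0.371) and OSGIN1 (0.61). Leaving out a clone ended each of the 4 calls in turn: the adjusted p of NQO1 was 0.58 without WT5, that of ALDH3A1 was 0.806 and that of UGT1A1 0.981 without WT2, and that of HMOX1 was 0.157 without WT37. Without WT5, FTL and TXNRD1 passed (adjusted p = 0.0124 and 0.0177). Without DOX as a covariate none of the 9 passed (0 genes in edgeR, 1 of them with an unadjusted p under 0.05), in a fit where 248 of all genes did. DESeq2 called 4 of the 9 between clones, as edgeR did.

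**Figure D3:**
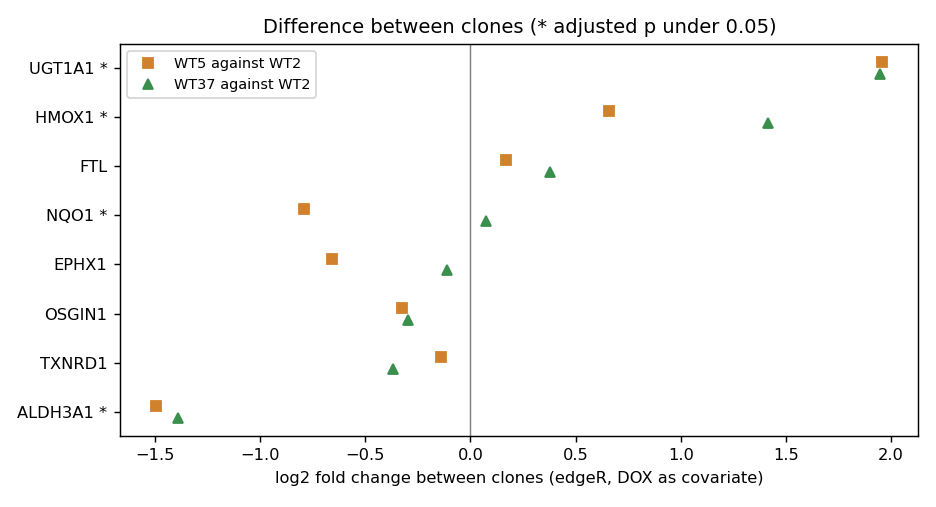
Log2 fold change between clones for the 8 tested genes (rows), WT5 against WT2 as squares and WT37 against WT2 as triangles, from edgeR with DOX as a covariate; an asterisk marks an adjusted p under 0.05. UGT1A1 lies near 1.95 and ALDH3A1 between -1.49 and -1.39 in both clones, while the squares and triangles of NQO1 stand apart.

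Over the 6 libraries, the Pearson correlation of log2(CPM + 1) with NQO1 was 0.88 for EPHX1, 0.74 for ALDH3A1, 0.71 for OSGIN1 and 0.65 for FTL. It was 0.36 for HMOX1, 0.34 for TXNRD1 and 0.24 for UGT1A1. These 6 points share 3 clones and 2 conditions, so the values describe how far each gene shares the pattern of NQO1, which was high in WT2 and WT37 with DOX and lowest in WT5 without DOX. Of the tested genes outside the 9, the 5 most like NQO1 were ANGPTL4, RETREG1, TGFBR2, ULK3 and RCAN3, with r between 0.9883 and 0.9966 over the 6 libraries. ANGPTL4, which encodes a secreted inhibitor of lipoprotein lipase, had 14.3, 5.71 and 15.7 CPM with DOX in WT2, WT5 and WT37, against 6.18, 3.50 and 6.71 CPM without DOX. With so many genes and 6 libraries, r near 1 is found by search alone, and the ranking is a description.

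The other genes of these pathways were read from 11 lists, which leave out the 9 genes and were also drawn up with earlier results known. Of 192 listed genes, 178 had a row and 131 were tested. Without the clone term 0 passed in edgeR, as did 0 of all genes; 17 of the 131 had an unadjusted p under 0.05 (13.0%, against 6.04% of all tested genes), and 1 passed in DESeq2 (CYP2J2). With the clone as a block 31 of the 131 had an unadjusted p under 0.05 (23.7%, against 12.9% of all tested genes) and 2 passed (1 higher and 1 lower), where 0.656% of all tested genes passed as higher and 0.639% as lower. The median log2 change of the 131 genes was 0.0017 with the block, 66 of them were above 0, and 37 were higher in all 3 clones (28.2%, against 17.8% of all tested genes) and 23 lower (17.6%, against 17.2%).

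The regulators showed no called gene. Of the 11 tested genes of the NRF2 regulator list, 0 passed, 0 had an unadjusted p under 0.05 in edgeR with or without the block, and the median log2 change was 0.01. NFE2L2, chosen for its role after values were seen, averaged 66.9 ± 13.1 CPM with DOX and 61.7 ± 8.64 CPM without DOX (SD, n = 3 each), with overlapping groups. KEAP1, the most abundant of the list, averaged 177 ± 4.82 CPM with DOX and 190 ± 5.95 CPM without DOX, and MAFG, a small MAF partner, had the largest change of the list with a log2 fold change of 0.22 ± 0.10 SE (edgeR with the block, adjusted p = 0.391). NRF2 is controlled mainly through its protein, which was not measured.

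Glutathione genes also showed no call. Of 17 tested genes of glutathione synthesis and use, 0 passed in edgeR with or without the block, with a median log2 change of 0.11; 8 had an unadjusted p under 0.05 with the block and 2 without it, where 12.9% and 6.04% of all tested genes did. In all 3 clones, 7 of the 17 were higher with DOX and 0 lower, where 17.8% and 17.2% of all tested genes were. GCLC and GCLM, the subunits of the first enzyme of glutathione synthesis and, like GSR, common NRF2 targets, were chosen for their role after values were seen. GCLM had 123.9, 126.6 and 99.1 CPM with DOX in WT2, WT5 and WT37, against 121.1, 142.3 and 108.3 CPM without DOX, and so overlapped. GCLC averaged 27.2 ± 3.86 CPM with DOX and 29.4 ± 6.18 CPM without DOX, and GSR, glutathione reductase, 229.8 ± 23.1 CPM with DOX and 243.4 ± 28.6 CPM without DOX (SD, n = 3 each). Their log2 fold changes with the block were all between -0.11 and -0.08. SLC7A11, the cystine transporter, likewise chosen, averaged 38.5 ± 8.86 CPM with DOX and 31.0 ± 7.36 CPM without DOX. Its partner SLC3A2, the most abundant of the list, averaged 477 ± 128 CPM with DOX and 472 ± 60.6 CPM without DOX. CHAC1, which breaks glutathione down, had the largest change of the list, 0.57 ± 0.18 SE (edgeR with the block, adjusted p = 0.171). Of 10 tested glutathione transferases 0 passed, with a median of -0.04; GSTP1, the most abundant, averaged 3799 ± 353 CPM with DOX and 3813 ± 179 CPM without DOX, and GSTZ1 had the largest change (0.44 ± 0.14 SE, adjusted p = 0.162).

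The thioredoxin, peroxiredoxin and superoxide enzymes beside TXNRD1 (16 tested) had 0 calls and a median of -0.04. TXN, thioredoxin itself and the most abundant of them, averaged 524 ± 131 CPM with DOX and 569 ± 135 CPM without DOX. CAT, catalase, had the largest change, 0.51 ± 0.12 SE with the block (adjusted p = 0.0688), and was higher with DOX in all 3 clones without passing. Of 10 genes of NADPH supply 0 passed, with a median of 0.09. TALDO1, the most abundant of that list, averaged 917 ± 145 CPM with DOX and 918 ± 118 CPM without DOX.

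Among the listed aldehyde dehydrogenases, which leave out ALDH3A1, 1 passed. ALDH3B1, an aldehyde dehydrogenase of the same family that acts on lipid aldehydes, had 25.2, 21.4 and 26.3 CPM with DOX in WT2, WT5 and WT37, against 12.9, 12.7 and 16.9 CPM without DOX. It rose with the clone as a block (log2 fold change 0.78 ± 0.15 SE, edgeR, adjusted p = 0.0354), and the groups did not overlap. The call was absent without the block (adjusted p = 0.392), in DESeq2 with the block (0.098), and with the block without WT2 (0.293) or without WT37 (0.198). The other 11 of 12 tested aldehyde dehydrogenases did not pass, and the list's median was 0.08; ALDH18A1, the most abundant, averaged 142 ± 8.32 CPM with DOX and 157 ± 14.0 CPM without DOX.

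Of 10 tested aldo-keto, carbonyl and quinone reductases and epoxide hydrolases other than NQO1 and EPHX1, 0 passed, with a median of -0.03. PTGR1, a reductase of prostaglandins and unsaturated aldehydes that is also known as an NRF2 target, had 14.5, 7.85 and 17.9 CPM with DOX in WT2, WT5 and WT37, against 9.08, 4.83 and 7.26 CPM without DOX. It was higher with DOX in every clone and did not pass (log2 fold change 0.92 ± 0.21 SE, edgeR with the block, adjusted p = 0.0566). AKR7A2, the most abundant, averaged 103 ± 16.7 CPM with DOX and 119 ± 12.5 CPM without DOX. Of 6 tested glucuronosyl- and sulfotransferases 0 passed; UGDH, which makes the sugar that UGT enzymes use, averaged 464 ± 63.2 CPM with DOX and 421 ± 36.5 CPM without DOX, and SULT2B1 had the largest change on 4 to 29 reads (-1.20 ± 0.51 SE, adjusted p = 0.342).

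Of 22 tested genes of iron and heme handling, 0 passed, with a median of 0.02. TFRC, the transferrin receptor that brings iron into the cell and the most abundant of the list, had 416, 443 and 263 CPM with DOX in WT2, WT5 and WT37, against 508, 513 and 474 CPM without DOX. The groups did not overlap, with every library with DOX below every library without DOX, while FTL lay the other way round; the TFRC difference did not pass (adjusted p = 0.122, edgeR with the block). CYBRD1, a ferric reductase, had the largest change (0.65 ± 0.29 SE, adjusted p = 0.363), with WT37 as the clone where it was high with DOX. SLC48A1, a heme transporter chosen for its role after values were seen, averaged 93.8 ± 13.3 CPM with DOX and 69.3 ± 6.86 CPM without DOX, without overlap (adjusted p = 0.0906, edgeR with the block).

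Of 9 tested genes around AHR and the xenobiotic receptors, 1 passed. The list's median log2 change was 0.27, the highest of the 11 lists. With the block 5 of the 9 had an unadjusted p under 0.05, and without it also 5, where 12.9% and 6.04% of all tested genes did. The 5 genes were not all the same in the 2 fits, and in both they included CYP2J2 and CYP2S1, which were lower with DOX. CYP2J2, a cytochrome P450 that makes epoxides from arachidonic acid, had 16.3, 15.7 and 10.3 CPM with DOX in WT2, WT5 and WT37, against 25.1, 27.97 and 27.8 CPM without DOX. It fell by 0.96 ± 0.17 SE on the log2 scale (edgeR with the block, adjusted p = 0.0243), and the groups did not overlap. It also passed in DESeq2 without the block (adjusted p = 0.026). The call was absent in edgeR without the block (adjusted p = 0.336), and with the block without WT2 (0.0874) or without WT37 (0.291). CYP1B1, an AHR target chosen for its role after values were seen, had 39.9, 41.5 and 27.8 CPM with DOX in WT2, WT5 and WT37, against 17.8, 32.6 and 18.6 CPM without DOX. It was higher with DOX in each clone, overlapped between groups and did not pass (adjusted p = 0.0686, edgeR with the block). AHRR, the AHR repressor and itself an AHR target, had the largest change, 1.36 ± 0.41 SE on 6 to 36 reads (adjusted p = 0.159). Of the 9 tested genes of this list, 4 were higher with DOX in all 3 clones and 2 lower, CYP2J2 and CYP2S1, where 17.8% and 17.2% of all tested genes were. CYP2S1, another P450, averaged 13.8 ± 4.45 CPM with DOX and 21.8 ± 1.93 CPM without DOX, without overlap (adjusted p = 0.095, edgeR with the block). AHR itself was higher with DOX in 2 clones and lower in WT5 (adjusted p = 0.504, edgeR with the block). CYP2S1 and AHR were also chosen after values were seen. POR, the electron donor of P450 enzymes and the most abundant of the list, averaged 112 ± 19.1 CPM with DOX and 119 ± 8.26 CPM without DOX. Of 8 tested efflux transporters 0 passed, with a median of -0.05; ABCB1, a drug efflux pump with both the highest level and the largest change, averaged 75.9 ± 12.6 CPM with DOX and 108 ± 4.52 CPM without DOX (-0.52 ± 0.12 SE, edgeR with the block, adjusted p = 0.0566).

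**Figure D4:**
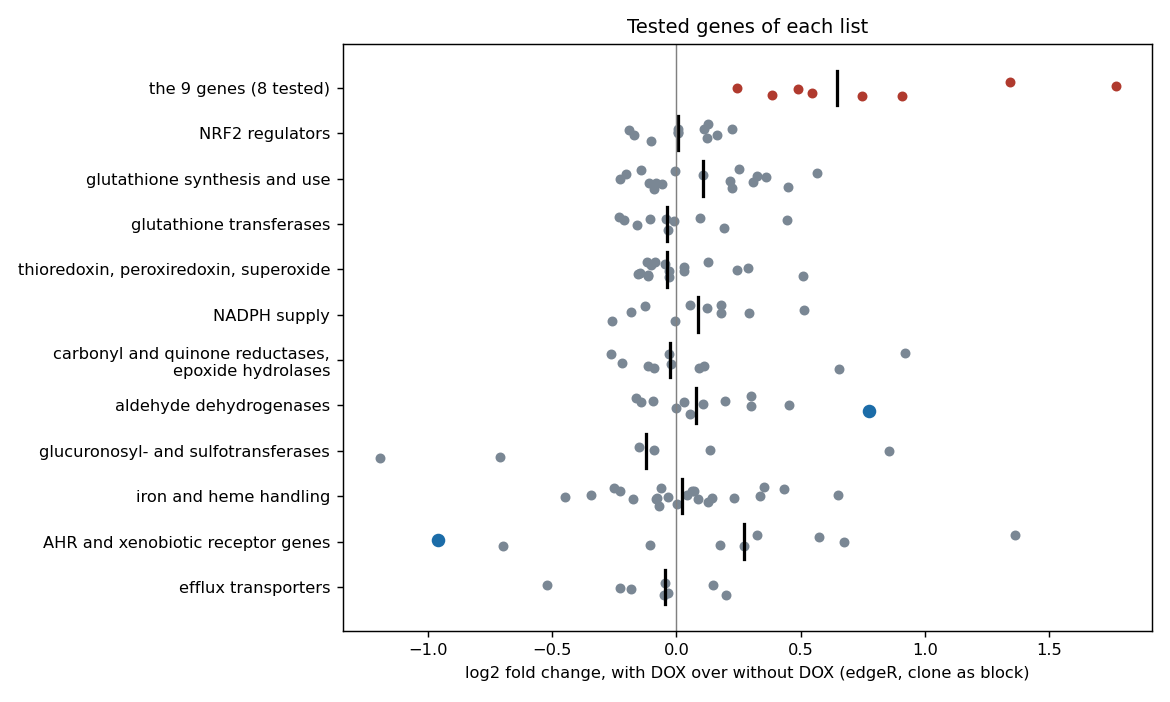
Log2 fold change of each tested gene with DOX over without DOX (x axis, edgeR with the clone as a block) for the 9 genes (8 tested, red) and for each of the 11 pathway lists without them (grey, called genes blue); black bars are medians. The 8 tested genes, which were chosen on this contrast, lie to the right of 0, the medians of the lists lie between -0.12 and 0.27, and ALDH3B1 and CYP2J2 are the called genes.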

How the data were processed

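Messenger RNA of 6 DLD-1 libraries was made into QuantSeq 3' FWD libraries, per the labels' protocols. The authors deposited whole-number read counts per Ensembl gene, with no normalization recorded. Per the submitters' processing notes, the build was GRCh38 and DESeq2 was among the tools. No source at hand states the aligner, counter, annotation or strand setting. Reads outside genes, in 4 rows of the table (4.29% to 5.25% unmapped, 11.8% to 15.96% mapped to several places, 8.72% to 11.7% outside features and 6.86% to 7.40% ambiguous) entered neither library sizes nor tests. GENCODE 29 (GRCh38) gave symbols and positions for 26914 of 27264 rows.

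The 9 genes, the pathway lists, the markers and the tests were chosen with earlier results of these data known. Counts were scaled by TMM and tested with edgeR 4.0.16 in R 4.3.3 (quasi-likelihood, robust, filterByExpr, Benjamini-Hochberg adjustment over 11732 genes, threshold 0.05), without the clone as a term. DESeq2 1.42.0 and limma 3.58.1 (voom), other scalings and filters, and leaving out clones or libraries were alternatives, and the tests were tried on simulated counts. Deviations from the group means, taken across genes, correlated within each clone (WT37 r = 0.530, WT2 r = 0.489, WT5 r = 0.284), so the clones pair the samples, and blocked values are printed beside the others. With the block, the biological coefficient of variation was 10.9%, and 17.9% otherwise. Without the block, p-values for DOX are set against the spread between the clones of a group. With the block, they are set against the spread of the within-clone differences, as are those of the clone term with DOX as a covariate. An SE is an approximation, the log2 change over the square root of F. Libraries of a group differed by more than sampling noise (chi-square over its degrees of freedom 6.11 to 18.3). Within-clone differences use log2(CPM + 1), which understates changes of low genes. Counting intervals are exact at 95% and cover counting error only.

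Genes named are the 9, the UGT1A and ferritin copies, per list the most abundant tested gene and the one with the largest absolute log2 change, each list gene called with or without the block, the 5 genes most correlated with NQO1, and ZEB2 and markers. Genes chosen for their role after values were seen are marked as such, and 1 gene that the rule names is not reported here. Promoter letters come from RefSeq windows of GRCh38.p14, which 6 of the 9 genes have.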

Additional observations from a re-analysis of the deposited data

Results flagged for a closer look

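Of the genes named here, TXNRD1 and 3 genes of the pathway lists had clones that moved in opposite directions, by at least 1.1-fold each way and with exact 95% counting intervals that did not include 1. For TXNRD1 the fold with DOX over without DOX was 1.33 in WT2 and 1.38 in WT37, but 0.905 in WT5. For SLC3A2, the partner of the cystine transporter, the fold was 1.21 in WT5 but 0.839 in WT2, and 0.971 in WT37 with an interval (0.922 to 1.02) that included 1. For POR the fold was 1.2 in WT5, but 0.89 in WT2 and 0.751 in WT37. For NFE2L2, which encodes NRF2, the fold was 1.18 in WT2 and 1.28 in WT37, but 0.829 in WT5. The same held for 9 of all 131 tested genes of the pathway lists (6.87%) and for 833 of all 11732 tested genes (7.1%). In the 4 named genes WT5 went one way and WT2 the other, but each clone has 1 library per condition, and the difference between clones was not tested.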

How the results depend on the processing

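The count of genes called with DOX depended on the fit. It was 0 without the clone term and 152 with it as a replicate block. Without the block it was 57 in DESeq2, 206 without the low-count filter, 0 to 4 without a clone and 0 to 35 without a library (35 without WT5 with DOX, 4 without WT5). With the block it was 133 in DESeq2, 155 with RLE size factors, 185 in limma-voom, 518 without the filter and 84 with a filter of 10 CPM in 3 libraries, and 5 to 736 without a clone (8 without WT2, 736 without WT5, 5 without WT37). Of the other pathway genes, 0 were called in the main analysis, 1 in DESeq2, 5 without the filter and, with the block, 2 in edgeR, 1 in DESeq2, 2 with RLE, 2 in limma-voom, 15 without the filter, 2 with the stricter filter and 0 to 15 without a clone (15 without WT5). Genes differing between clones numbered 802, but 441 in DESeq2, 248 without DOX as a covariate, 1783 without the filter and 129 to 1782 without a clone (406 without WT2, 1782 without WT5, 129 without WT37); of the 9 genes 4 differed, but 0 without the covariate and 2 to 5 without a clone (2 without WT2).

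The median log2 difference of the 9 genes was 0.5443. It was 0.5264 to 0.6458 without a clone (0.6458 without WT5, 0.6316 without WT37), and over the 8 tested genes in edgeR 0.6648 without the block and 0.6468 with it. FTH1 averaged -0.2339 over the clones and ranged between -0.6562 without WT2 and 0.0788 without WT5, where its sign turned, on 8 reads or fewer per library. With a pseudocount of 5 CPM, UGT1A1 came to 0.8552 and EPHX1 to 0.4341. The cause of these shifts was not tested. Depth limits FTH1, EPHX1, OSGIN1 and UGT1A1 in WT2, where single-clone folds rest on few reads. With 3 clones, differences small beside the spread between clones could not be seen without the block. With the block, the limit was the spread of the within-clone differences.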
